A study of Mus musculus with 14 samples.

Results

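The tuft cell lineage genes Pou2f3, Ascl2, Trpm5, Avil, Dclk1, Alox5, Gng13 and Chat were followed in bulk RNA sequencing of cultured mouse small cell lung cancer cells. The genes were taken by symbol, and all 8 had a row among the 32926 gene rows of the count table. The series compares libraries labelled non-neuroendocrine (Non-NE) with libraries labelled neuroendocrine (NE), and follows NE cells that express YAP5SA, a mutant YAP coactivator that escapes inhibition by Hippo pathway kinases. It asks how YAP bears on the heterogeneity of these tumours. There were 3 Non-NE libraries, 3 NE libraries, and 2 libraries each at days 0, 3, 7 and 21 of YAP5SA, 14 in all.

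All groups came from lung tumours of adult mice of mixed strain that carry the CGRPCreER/+ driver, in which the promoter of the calcitonin gene-related peptide drives an inducible Cre in pulmonary neuroendocrine cells. The floxed alleles Rbf/f, P53f/f and Ptenf/f were common to Non-NE, NE and YAP5SA cells. The mice were given TM, an agent that the labels do not spell out, 2 months is stated as the time, and the cells were grown in Hites medium. YAP5SA cells also carried Rosa26rtTA and Tet-onYAP5SA, except that the text for day 0 replicate 1 lists neither. The genotype labels of 6 libraries print another number after the P, while the source text of those libraries gives P53f/f. No label says whether replicates came from separate tumours, lines or cultures, so p-values measure only the spread between these libraries, which may be technical. The samples hold no transgene-free counterpart of days 3, 7 and 21, so time in culture and YAP5SA cannot be told apart. Day 21 and Non-NE libraries belong to different parts of the series and differ in transgenes. In day 21 over Non-NE, these differences and cell state therefore cannot be told apart.

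Tuft cells are rare chemosensory cells of hollow organs, including the airway. They sense luminal compounds through a taste-like cascade of G protein subunits, phospholipase C and the cation channel TRPM5, and they release acetylcholine, lipid mediators and the cytokine IL-25. Their formation depends on the POU-domain factor POU2F3, which also defines a tuft-like subtype of human small cell lung cancer.

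Library totals ran from 6730816 to 10659524 counts. Levels are given in CPM, that is counts scaled to a common library size, with TMM-adjusted totals. A group at 0 counts allows up to 3 counts over its libraries, 0.104 to 0.152 CPM depending on the group, and these floors and all count intervals cover counting error only. A fold given as at least sets such a group to 3 counts and takes the other group's count as exact. It does not cover the counting error of that other group. A change was called at an adjusted p under 0.05 in edgeR's quasi-likelihood test with Benjamini-Hochberg adjustment over all genes tested. NE replicate 2 had 85.7% of the total of day 0 replicate 1, and its count exceeded that library's in 0 of the 32926 genes, while it exceeded day 0 replicate 2 in 2995 genes. NE replicate 2 and day 0 replicate 1 therefore share reads, and the NE and day 0 groups are not independent. The 5 neuroendocrine markers used summed to 0.661 to 1.27 CPM in Non-NE and 924 to 1049 CPM in NE libraries. Calca, the gene of the Cre driver, had a single count in the 14 libraries.

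The promoters of the 4 genes that were higher on days 7 and 21 than on day 0 are shown because these members shared those calls. They are RefSeq windows of GRCm38.p6 from 250 bases before to 50 bases after the start, read 5′ to 3′ on the gene's strand. Ascl2, which encodes a basic helix-loop-helix factor, lies at chr7:142969215-142969514 on the minus strand. Trpm5, the channel gene, lies at chr7:143094593-143094892 on the minus strand. Avil, which encodes the actin-binding protein advillin, lies at chr10:127000459-127000758 on the plus strand. Chat, which encodes the enzyme that makes acetylcholine, lies at chr14:32465860-32466159 on the minus strand. Capitals mark the only match to the 3 motifs searched.
Ascl2: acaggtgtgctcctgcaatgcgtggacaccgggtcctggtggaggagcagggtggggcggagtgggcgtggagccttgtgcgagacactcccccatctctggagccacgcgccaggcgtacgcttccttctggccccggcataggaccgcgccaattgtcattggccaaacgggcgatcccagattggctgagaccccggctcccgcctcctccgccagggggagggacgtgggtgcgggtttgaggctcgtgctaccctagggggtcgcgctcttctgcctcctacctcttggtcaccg
Trpm5: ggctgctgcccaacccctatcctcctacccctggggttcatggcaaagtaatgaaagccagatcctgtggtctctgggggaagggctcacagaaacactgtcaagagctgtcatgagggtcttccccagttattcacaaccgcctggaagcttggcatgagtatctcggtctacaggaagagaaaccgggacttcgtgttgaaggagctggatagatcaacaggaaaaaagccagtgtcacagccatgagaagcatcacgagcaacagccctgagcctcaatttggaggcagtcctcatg
Avil: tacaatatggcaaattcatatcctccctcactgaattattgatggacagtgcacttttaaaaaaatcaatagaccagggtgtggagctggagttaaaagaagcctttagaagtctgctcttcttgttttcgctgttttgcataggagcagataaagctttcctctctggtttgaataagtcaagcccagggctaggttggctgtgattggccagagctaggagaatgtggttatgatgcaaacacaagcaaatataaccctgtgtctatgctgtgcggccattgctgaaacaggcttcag
Chat: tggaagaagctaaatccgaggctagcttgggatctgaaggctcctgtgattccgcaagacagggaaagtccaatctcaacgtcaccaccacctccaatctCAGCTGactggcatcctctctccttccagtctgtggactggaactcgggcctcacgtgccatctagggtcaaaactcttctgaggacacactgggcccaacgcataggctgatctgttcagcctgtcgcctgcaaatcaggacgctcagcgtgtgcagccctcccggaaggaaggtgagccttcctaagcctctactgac
The motifs were searched on both strands and do not overlap. They were GGAATG, the M-CAT letters that TEAD factors, the DNA-binding partners of YAP, recognise, ATGCAAAT, the octamer of POU factors, and CAGCTG, an E-box of basic helix-loop-helix factors. GGAATG and ATGCAAAT had 0 matches in the 9 windows found for 7 of the members, against 14.7% and 1.74% of all 32851 RefSeq windows of that length. CAGCTG had a match in Chat, at base -150 from the start, and 16.3% of all windows held it. No window was given for Pou2f3. A match is a description of letters, and a window without a match says nothing of the factor.

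The members differed in where they were detected. Dclk1 was abundant in Non-NE cells and low elsewhere. Ascl2, Trpm5, Avil and Chat were low at day 0 of YAP5SA and higher at day 7. Pou2f3 and Alox5 were at or under the floor in every group. Gng13 had at most 9 counts in any library, with group means of 0 in Non-NE cells, 0.448 CPM in NE cells and 0.762 CPM at day 7. In per-length terms the highest group level was 19.8 ± 4.45 CPM per kb of exon for Dclk1 in Non-NE cells (SD, n = 3). At day 7 Ascl2 stood at 1.44 ± 0.354, Avil at 1.30 ± 0.0212, Gng13 at 0.986 ± 0.279, Chat at 0.756 ± 0.0306, Trpm5 at 0.214 ± 0.0562 and Dclk1 at 0.116 ± 0.0235 CPM per kb (SD, n = 2). In that order the SD ranges of Ascl2 and Avil overlapped, as did those of Gng13 and Chat, while Avil and Gng13, Chat and Trpm5, and Trpm5 and Dclk1 did not overlap. With 2 libraries behind each SD and at most 9 Gng13 counts in a library, this order is a description only.

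**Figure D1:**
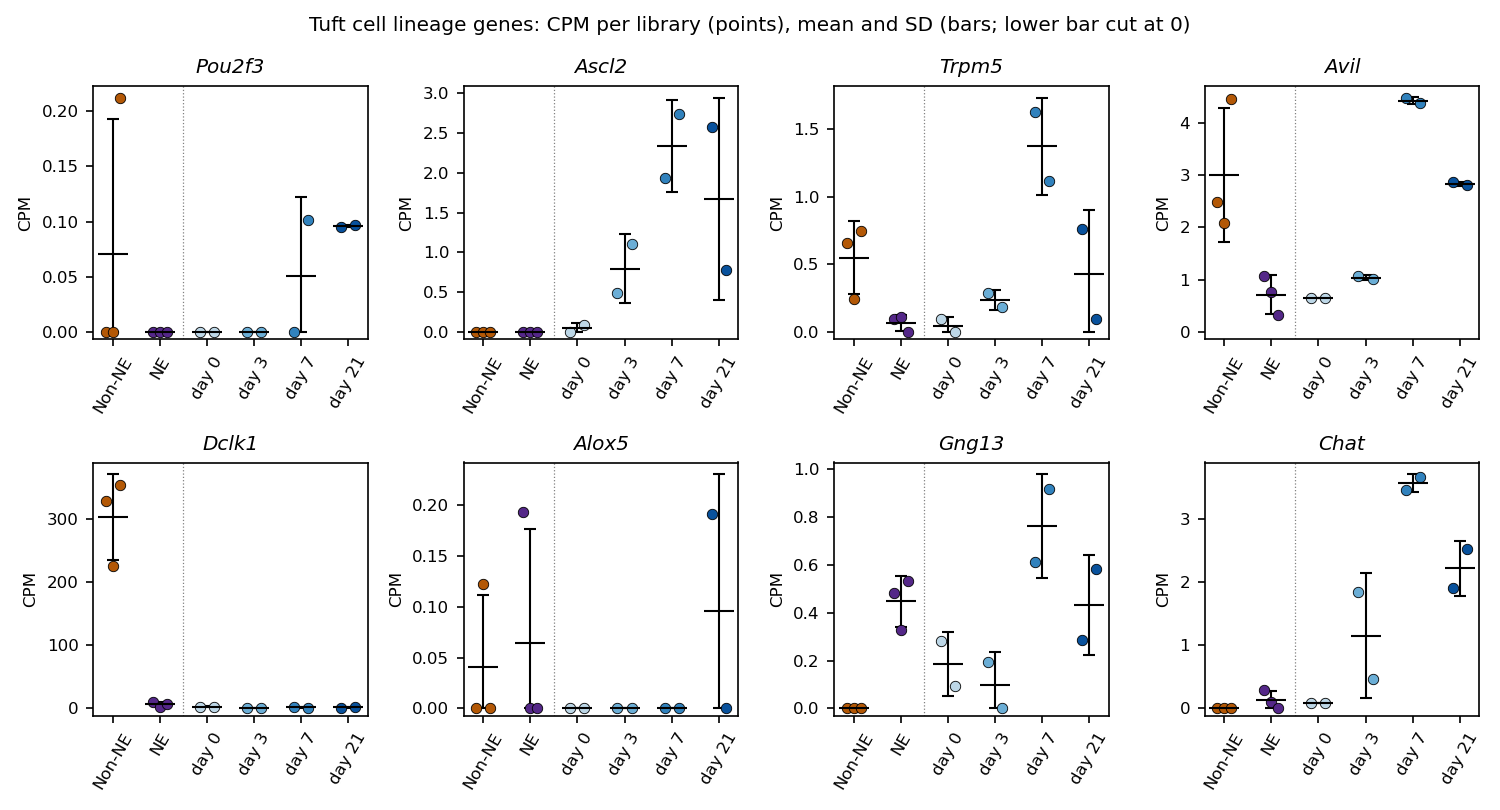
CPM (linear axis, own scale per panel) of the 8 tuft lineage genes in Non-NE, NE and YAP5SA day 0, 3, 7 and 21 libraries; points are libraries, bars the mean and SD, cut at 0. Dclk1 is high in the 3 Non-NE libraries, while Ascl2, Trpm5, Avil and Chat have their highest group mean at day 7.

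Pou2f3, the master factor of the tuft lineage, was at chr9:43123939-43210369 on the minus strand of mm10. It had 0, 0 and 2 counts in the Non-NE libraries, against 0 in each NE library. In the YAP5SA series it had 0 counts in each library at days 0 and 3, 0 and 1 at day 7, and 1 and 1 at day 21. These 5 counts over 4 libraries left every group at or under its floor, so no fold or test is given. No difference in Pou2f3 between groups was detectable at this depth. Its coactivator gene Gm684, which RefSeq lists as a synonym of Colca2, was measured in all libraries. Gm684 averaged 0.737 ± 0.764 CPM in Non-NE and 5.60 ± 2.99 CPM in NE libraries (SD, n = 3 each), and was 7.46-fold lower in Non-NE in edgeR (adjusted p = 0.0379). Over days 0, 3, 7 and 21 Gm684 stood at 6.71 ± 1.11, 9.86 ± 0.613, 9.71 ± 0.0718 and 4.80 ± 0.758 CPM (SD, n = 2 each). Compared with day 0 it was 1.46-fold higher at day 3 (adjusted p = 0.0132), 1.46-fold higher at day 7 (adjusted p = 0.00939) and 1.37-fold lower at day 21 (adjusted p = 0.0469) in edgeR. 1810046K07Rik, the row taken for Pou2af2, another coactivator gene of the tuft list, had 6 counts in total. It was at or under the floor in every group.

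Ascl2, the basic helix-loop-helix factor known as a Wnt-responsive regulator of intestinal stem cells and as a tuft marker in small cell lung cancer, was at chr7:142966829-142969264 on the minus strand. It had 0 counts in all 3 Non-NE and all 3 NE libraries. In YAP5SA cells it had 0 and 1 counts at day 0, 5 and 12 at day 3, 19 and 27 at day 7, and 27 and 8 at day 21. Every library of days 3, 7 and 21 was above both day 0 libraries, while the day 21 libraries differed from each other as 2.57 and 0.775 CPM. A fitted fold against so few day 0 counts depends on the prior count, so the ratio of pooled counts is given with its 95% interval for Ascl2, Trpm5 and Chat. For Ascl2 it was 17.2 (2.70 to 720.5) at day 3, 50.2 (8.57 to 2025) at day 7 and 36.1 (6.07 to 1466) at day 21, each over day 0. In edgeR the adjusted p against day 0 was 0.00703 at day 3, 6.32e-06 at day 7 and 5.61e-05 at day 21. The day 3 call was lost without day 0 replicate 1 (adjusted p = 0.0713) and without day 3 replicate 2 (adjusted p = 0.110), in edgeR. Without day 0 replicate 1 or replicate 2 the fitted log2 change was 4.50 or 7.61 at day 7, and 4.03 or 7.14 at day 21. Without day 21 replicate 1 or replicate 2 it was 3.76 or 5.48 at day 21, and all of these stayed called.

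Ascl2 was also 2.93-fold higher at day 7 than at day 3 in edgeR (log2 change 1.55, SE 0.49, adjusted p = 0.00947). That call was lost without day 3 replicate 1 (adjusted p = 0.113) and without day 7 replicate 2 (adjusted p = 0.110), and without day 3 replicate 2 the log2 change was 2.26. Between day 21 and day 7 its log2 change was -0.46 (SE 0.42), with an adjusted p of 0.375 in edgeR. Without day 21 replicate 1 that comparison gave -1.58 with an adjusted p of 0.0237. Against Non-NE cells, where it had 0 counts, Ascl2 at day 21 was at least 13.3-fold higher (adjusted p = 0.00411 in edgeR).

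Neurod1 and Yap1 are other factor genes that define small cell lung cancer subtypes. Neurod1 had 0 counts in Non-NE libraries and 11 in NE libraries. Yap1 averaged 206 ± 63.6 CPM in Non-NE and 13.0 ± 5.64 CPM in NE libraries. Over days 0, 3, 7 and 21 Yap1 averaged 7.50, 1148, 764 and 213 CPM, and whether reads of the transgene fall in this row was not tested.

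Trpm5, the cation channel that ends the taste-like cascade, was at chr7:143069153-143094642 on the minus strand. It had 4, 2 and 7 counts in Non-NE libraries, against 1, 1 and 0 in NE libraries. The 3 Non-NE libraries, at 0.661, 0.244 and 0.743 CPM, lay above the 3 NE libraries, at 0.0965, 0.109 and 0 CPM. The pooled count ratio of Non-NE over NE was 7.94 (95% interval 1.80 to 72.4). Trpm5 did not pass the count filter of this comparison. Without the filter its adjusted p was 0.0938 in edgeR, and in the fit of all 14 libraries 0.0297.

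Over the YAP5SA series Trpm5 had 1 and 0 counts at day 0, 3 and 2 at day 3, 16 and 11 at day 7, and 8 and 1 at day 21. Both day 7 libraries were above all others of the series, and the day 21 libraries stood apart at 0.762 and 0.0969 CPM. Day 21 replicate 1 was the higher library for Ascl2 as well, but not for Chat or Gng13. The pooled count ratio over day 0 was 5.07 (0.567 to 240) at day 3, 29.5 (4.86 to 1206) at day 7 and 9.28 (1.29 to 407) at day 21. In edgeR the adjusted p against day 0 was 0.225 at day 3, 0.000104 at day 7 and 0.0327 at day 21. The day 7 call held without either day 0 library, with log2 changes of 6.85 and 3.72. For day 21 the log2 change of 2.94 became 0.91 without day 21 replicate 1 (adjusted p = 0.685) and 2.09 without day 0 replicate 2 (adjusted p = 0.191), so that the edgeR call rests on these libraries. It was 5.21 without day 0 replicate 1 and 3.74 without day 21 replicate 2, both called.

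Trpm5 was 5.66-fold higher at day 7 than at day 3 in edgeR (log2 change 2.50, SE 0.67, adjusted p = 0.00286). It was 3.10-fold lower at day 21 than at day 7 (log2 change -1.63, SE 0.59, adjusted p = 0.0249 in edgeR). The fall at day 21 was no longer called without day 7 replicate 1 (adjusted p = 0.195) or without day 21 replicate 2 (adjusted p = 0.278, log2 change -0.84), and without day 21 replicate 1 it was -3.67. Trpm5 shares 220 of its 6398 exon bases (3.44%) with Tssc4 on the opposite strand, and the strand setting of the counting is not given in the sources used here. Tssc4 averaged 51.1 CPM at day 7 and 41.6 CPM at day 0, a 1.24-fold rise in edgeR (adjusted p = 0.00809). The part of Tssc4 reads in the Trpm5 counts was not tested.

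Gng13 encodes a G protein gamma subunit of the taste cascade and lies at chr17:25717171-25719406 on the plus strand. It had 0 counts in all 3 Non-NE libraries, against 5, 3 and 5 in NE libraries. The groups did not overlap. Gng13 was at least 3.55-fold lower in Non-NE by pooled counts, with Non-NE set to 3 counts and the NE counts taken as exact. Over days 0, 3, 7 and 21 it had 3 and 1, 2 and 0, 6 and 9, and 3 and 6 counts. The day 7 libraries lay above those of days 0 and 3, with a pooled ratio of 8.07 over day 3 (95% interval 1.88 to 72.7). Gng13 did not pass the count filter in any comparison. Without the filter edgeR gave an adjusted p of 0.0394 for Non-NE over NE, 0.0335 for day 7 over day 0 and 0.00763 for day 7 over day 3. Of its 773 exon bases, 399 (51.6%) are shared with Chtf18 on the opposite strand. Chtf18 averaged 66.1 CPM in Non-NE and 36.2 CPM in NE libraries, where Gng13 had no count in Non-NE. Over days 0, 3, 7 and 21 Chtf18 averaged 22.4, 12.9, 22.7 and 36.4 CPM, and its part in the Gng13 counts was not tested.

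Dclk1, a microtubule-associated kinase used as a tuft cell marker and also expressed in neurons, lies at chr3:55242364-55539068 on the plus strand. It stood at 329, 225.5 and 354 CPM in Non-NE libraries, against 10.5, 2.95 and 7.56 CPM in NE libraries. Every Non-NE library was above every NE library by a margin larger than the spread within either group. Dclk1 was 41.8-fold higher in Non-NE in edgeR (log2 change 5.38, SE 0.50, adjusted p = 0.000341). In bulk libraries, fewer cells with a transcript and less of it per cell cannot be told apart. RefSeq gives 2 start windows for Dclk1, at chr3:55242114-55242413 and chr3:55461478-55461777, and counts per gene do not separate their transcripts. The 5 fibroblast markers, all 5 with counts, summed to 6150 to 14870 CPM in Non-NE and 2.70 to 4.79 CPM in NE libraries, where Lum was at 0. Col1a1 carried most of the Non-NE sum, with 5800 to 14614 CPM. Pdgfrb, Dcn, Pdgfra and Lum averaged 468, 24.2, 10.9 and 1.16 CPM in Non-NE. The part of the 5 markers in the Dclk1 difference was not tested.

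In the YAP5SA series Dclk1 was low throughout and fell at day 3. It stood at 3.09 and 2.41 CPM at day 0, 1.36 and 1.10 CPM at day 3, 2.03 and 1.52 CPM at day 7, and 1.24 and 2.13 CPM at day 21. Every later library was below both day 0 libraries. Dclk1 was 2.24-fold lower at day 3 than at day 0 in edgeR (log2 change -1.16, SE 0.35, adjusted p = 0.00769). That call was lost without day 0 replicate 1 (adjusted p = 0.0905) and without day 3 replicate 2 (adjusted p = 0.0722). The log2 changes at day 7 (-0.61, SE 0.33, adjusted p = 0.0999) and day 21 (-0.68, SE 0.33, adjusted p = 0.0657) did not pass in edgeR. On library totals alone both were called, at -0.81 (adjusted p = 0.0302) and -0.83 (adjusted p = 0.0278), and without day 21 replicate 2 the day 21 change was -1.12 (adjusted p = 0.0255). Without day 21 replicate 1 it was -0.35 (adjusted p = 0.424 in edgeR). At day 21 Dclk1 was 179-fold lower than in Non-NE cells in edgeR (log2 change -7.48, SE 0.56, adjusted p = 1.38e-06). The part of cell state in that difference was not tested. In order of mean level the groups ran Non-NE, NE, day 0, day 7, day 21 and day 3, and among neighbours in that order the SD ranges overlapped for NE and day 0, for days 7 and 21, and for days 21 and 3.

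Avil encodes advillin, an actin-bundling protein of the tuft cell brush and of sensory neurons, at chr10:127000709-127020994 on the plus strand. It stood at 2.48, 2.08 and 4.46 CPM in Non-NE libraries, against 1.06, 0.766 and 0.319 CPM in NE libraries, with no overlap. Avil was 4.03-fold higher in Non-NE in edgeR (log2 change 2.01, SE 0.60, adjusted p = 0.0319). The call did not hold when any of the 6 libraries was left out, with adjusted p between 0.0528 (without Non-NE replicate 2) and 0.114 (without Non-NE replicate 3) and log2 changes between 1.60 and 2.41. The libraries left out were Non-NE replicates 1, 2 and 3 and NE replicates 1, 2 and 3. Without the count filter its adjusted p was 0.0717 in edgeR.

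Over the YAP5SA days Avil rose late. It stood at 0.656 and 0.648 CPM at day 0, 1.07 and 1.01 CPM at day 3, 4.47 and 4.37 CPM at day 7, and 2.86 and 2.81 CPM at day 21. The replicates of each day were close, and no days overlapped. Against day 0 the log2 change was 0.65 at day 3 (SE 0.46, adjusted p = 0.262), 2.75 at day 7 (SE 0.34, adjusted p = 7.68e-08) and 2.12 at day 21 (SE 0.37, adjusted p = 1.43e-05) in edgeR. These later changes were 6.74-fold and 4.35-fold, and both stayed called without each library in turn. Avil was 4.29-fold higher at day 7 than at day 3 in edgeR (adjusted p = 2.35e-06). The 1.55-fold fall at day 21 against day 7 (adjusted p = 0.0374) was lost without either library of day 7 or of day 21, with adjusted p from 0.0981 to 0.141 in edgeR. Its level at day 21 did not pass against Non-NE cells (log2 change -0.09, SE 0.45, adjusted p = 0.877 in edgeR). Avil shares 165 of its 3398 exon bases (4.86%) with Tsfm on the opposite strand. Tsfm stayed between 20.5 and 23.2 CPM on average over the days and was not called in any of the comparisons.

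Alox5 encodes 5-lipoxygenase, the entry enzyme of leukotriene synthesis in tuft cells and leukocytes, at chr6:116410077-116461178 on the minus strand. It had 0, 1 and 0 counts in Non-NE libraries, against 2, 0 and 0 in NE libraries. In the YAP5SA series it had 0 counts in every library of days 0, 3 and 7, and 2 and 0 at day 21. All groups were at or under the floor, and no fold is given. Alox5ap, whose product presents the substrate to that enzyme, had 58 counts over the 14 libraries, and Ltc4s, the leukotriene C4 synthase gene, had 36.

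Chat, choline acetyltransferase, lies at chr14:32408203-32465989 on the minus strand. It had 0 counts in all 3 Non-NE libraries, against 3, 1 and 0 in NE libraries. The groups overlapped, since NE replicate 3 also had 0, and without the count filter the adjusted p was 0.233 in edgeR. In YAP5SA cells it had 1 and 1 counts at day 0, 19 and 5 at day 3, 34 and 36 at day 7, and 20 and 26 at day 21. In CPM these were 0.0937 and 0.0926, then 1.85 and 0.459, then 3.46 and 3.66, then 1.91 and 2.52. No later library overlapped day 0, and the day 3 libraries differed most from each other. The pooled count ratio over day 0 was 12.2 (3.02 to 106) at day 3, 38.2 (10.2 to 322) at day 7 and 23.7 (6.20 to 202) at day 21. In edgeR the adjusted p was 0.00136, 1.16e-07 and 5.38e-06 on those days. The day 3 call was lost without day 3 replicate 1 (log2 change 2.16, adjusted p = 0.0990 in edgeR), and without day 3 replicate 2 the log2 change was 4.13, against 3.44 with all libraries.

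Chat was 3.16-fold higher at day 7 than at day 3 in edgeR (log2 change 1.66, SE 0.38, adjusted p = 0.000673). Without day 3 replicate 1 or replicate 2 that log2 change was 2.94 or 0.96, both called. At day 21 against day 7 its log2 change was -0.68 (SE 0.33, adjusted p = 0.0950 in edgeR), and without day 3 replicate 2, which sets only the spread here, the adjusted p was 0.0489. Against Non-NE cells Chat at day 21 was at least 17.4-fold higher (adjusted p = 0.00110 in edgeR). Chat shares no exon bases with another annotated gene. Of the cholinergic neuron markers, Slc5a7, the choline transporter gene, had 0 counts in each library of days 0, 3 and 7 and 1 at day 21. Rbfox3 averaged 0.653, 2.08, 5.29 and 1.40 CPM over days 0, 3, 7 and 21, Isl1 had at most 5 counts in a library of the series, and Slc18a3 was not analysed here. The 3 markers summed to at least 4.78 CPM in each day 7 library and at most 0.844 CPM in each day 0 library. Rbfox3 alone gave both of these bounds, and Isl1 had 2 counts at day 7. The part of the 3 markers in the Chat rise was not tested.

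**Figure D2:**
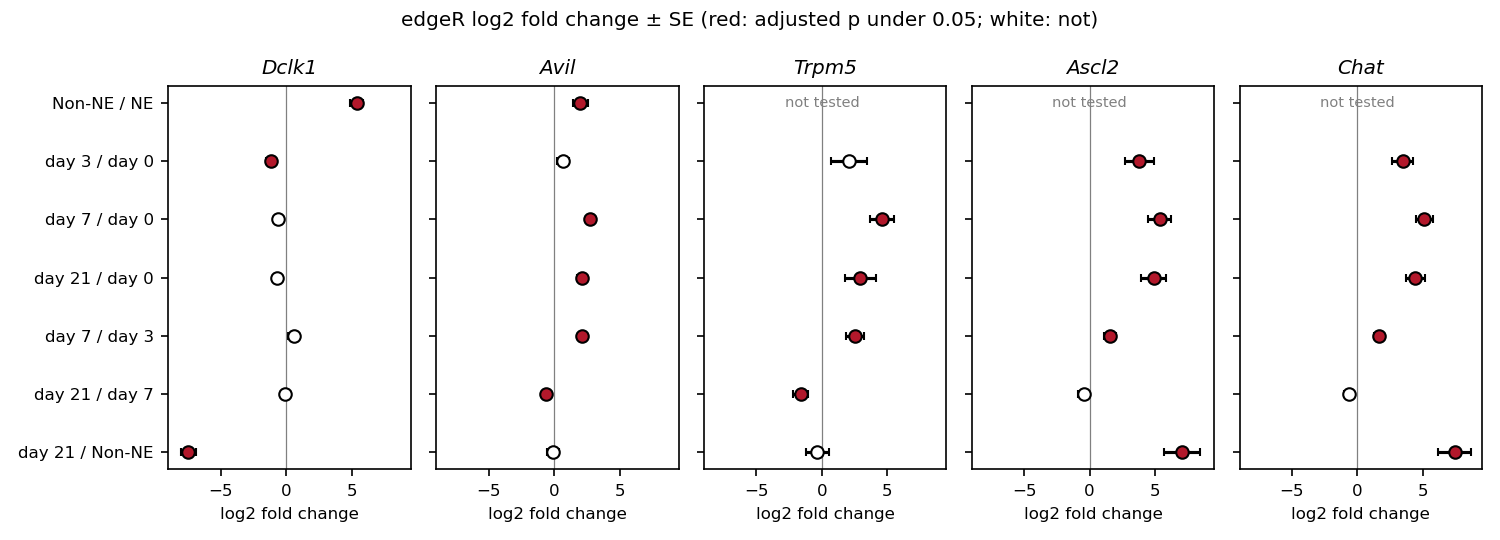
edgeR log2 fold change (first group over second) with SE for the 5 members that passed the count filter, in the 7 comparisons; filled points have an adjusted p under 0.05. Dclk1 is far to the right in Non-NE over NE and to the left in day 21 over Non-NE, while the other 4 members are right of 0 in day 7 over day 0.

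Counted over the comparisons, the members read as follows against all genes tested. In Non-NE over NE 2 members passed the filter, Dclk1 and Avil, and both were called higher, where 20.0% of 12966 genes were. At day 3 over day 0, 3 of 5 tested members were called, Ascl2 and Chat higher and Dclk1 lower, where 48.6% of 13996 genes were called in either direction. At day 7 over day 0, 4 of 5 were called higher, Ascl2, Trpm5, Avil and Chat, where 37.2% of all genes were. At day 21 over day 0, 4 of 5 were called higher, again Ascl2, Trpm5, Avil and Chat, where 37.7% of all genes were, and this comparison shares its day 0 libraries with those before. At day 7 over day 3, 4 of 5 were called higher, again those 4, where 29.5% were. At day 21 over day 7, 2 of 5 were called lower, Trpm5 and Avil, where 24.2% were. At day 21 over Non-NE, 3 of 5 were called, Ascl2 and Chat higher and Dclk1 lower, where 53.0% of 14829 genes were called in either direction. The share of 3 of 5 is near those backgrounds. Ascl2, Trpm5 and Chat passed the filter only through the days on which they were high. Avil, with 7 counts in each day 0 library, passed through the later days. In Non-NE over NE, Avil had 11, 7 and 3 counts in NE libraries and passed through the Non-NE libraries. A count over the tested members therefore had to lean toward the groups in which they were high. At day 21 over day 7 that lean was toward lower calls, and in the other comparisons toward higher calls. For the same reason the median log2 change of 4.57 over the 5 tested members at day 7 over day 0, against 0.03 over all genes, is a description only.

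Among 30 other tuft genes with a row, 10 were tested in Non-NE over NE, of which 3 were called higher and 4 lower. Over all genes tested 20.0% were higher and 22.8% lower, and the median log2 change was -0.43 for the 10 and -0.02 for all genes. Some passed the filter only through the group where they were high, such as Ptgs1, with 2 counts in NE, and Vil1, with 2 in Non-NE. The shares and the median are therefore a description only. The higher ones were Ptgs1, the cyclooxygenase 1 gene, Itpr3, an inositol trisphosphate receptor of the taste cascade, and Sox9. Ptgs1 stood at 45.3, 8.67 and 10.8 CPM in Non-NE libraries, against 0.193, 0 and 0 CPM in NE libraries. Its pooled count ratio was 273 (95% interval 75.1 to 2260). Itpr3 averaged 203 ± 85.5 CPM in Non-NE and 12.0 ± 16.2 CPM in NE libraries (SD, n = 3 each). Sox9, a progenitor factor gene, averaged 70.7 ± 54.1 CPM in Non-NE and 4.52 ± 4.84 CPM in NE libraries. The lower ones were Gm684 and 3 genes of the epithelial cytoskeleton, Vil1 (villin), Espn (espin) and Krt18 (keratin 18). Espn averaged 1.64 ± 1.35 CPM in Non-NE and 475 ± 152 CPM in NE libraries. Krt18 averaged 1.49 ± 1.33 CPM in Non-NE and 445.5 ± 332 CPM in NE libraries. Vil1 averaged 0.0708 ± 0.123 CPM in Non-NE and 21.9 ± 14.9 CPM in NE libraries. Tas1r3, Itpr2 and Cd24a did not pass.

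At day 21 over day 0, 11 of the other tuft genes were tested, of which 4 were called higher and 4 lower, against 37.7% and 34.0% of all genes. The median log2 change was -0.04 for the 11 and 0.02 for all genes. Ptgs1, with 0 counts at day 0, and Sox9, with 1, passed the filter only through later days. These shares and the median are therefore a description only. Ptgs1 had 0 counts at day 0 and averaged 0.894, 11.9 and 111 CPM at days 3, 7 and 21, at least 796-fold higher at day 21 by pooled counts. Itpr2, another inositol trisphosphate receptor gene, was 7.39-fold higher at day 21 (41.8 ± 3.08 CPM) than at day 0 (5.73 ± 1.43 CPM). Itpr3 was 1.45-fold higher at day 21 (42.4 ± 6.48 CPM) than at day 0 (29.8 ± 1.13 CPM). Sox9 had 185 counts at day 21 and 1 at day 0, a ratio of 191 (95% interval 33.8 to 7576). The lower ones were Espn, Cd24a, Vil1 and Gm684. Espn averaged 199 ± 25.9 CPM at day 21 and 635 ± 7.24 CPM at day 0 (SD, n = 2 each). Cd24a averaged 342 ± 31.6 CPM at day 21 and 880.0 ± 35.8 CPM at day 0. Vil1 averaged 19.9 ± 0.440 CPM at day 21 and 39.9 ± 3.66 CPM at day 0. Gnb3, Tas1r3 and Krt18 did not pass.

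Other genes of the taste cascade and of tuft effectors differed widely in their counts. Tas1r3, a taste receptor gene, had 371 counts over the 14 libraries and was at 1 CPM or more in all 14. Gnb3, a G protein beta subunit gene, had 211 counts, of which 155 were in 1 library. Gfi1b, a tuft factor gene, Gnat3, the alpha subunit gustducin, and Ffar3 had 0 counts in all 14 libraries, which allows at most 3 counts over each group. Plcb2, the phospholipase of the cascade, had 20 counts in total, Il25 had 4, and the succinate receptor gene Sucnr1 had 2. Kctd12 and Siglecf of the list were not analysed here.

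**Figure D3:**
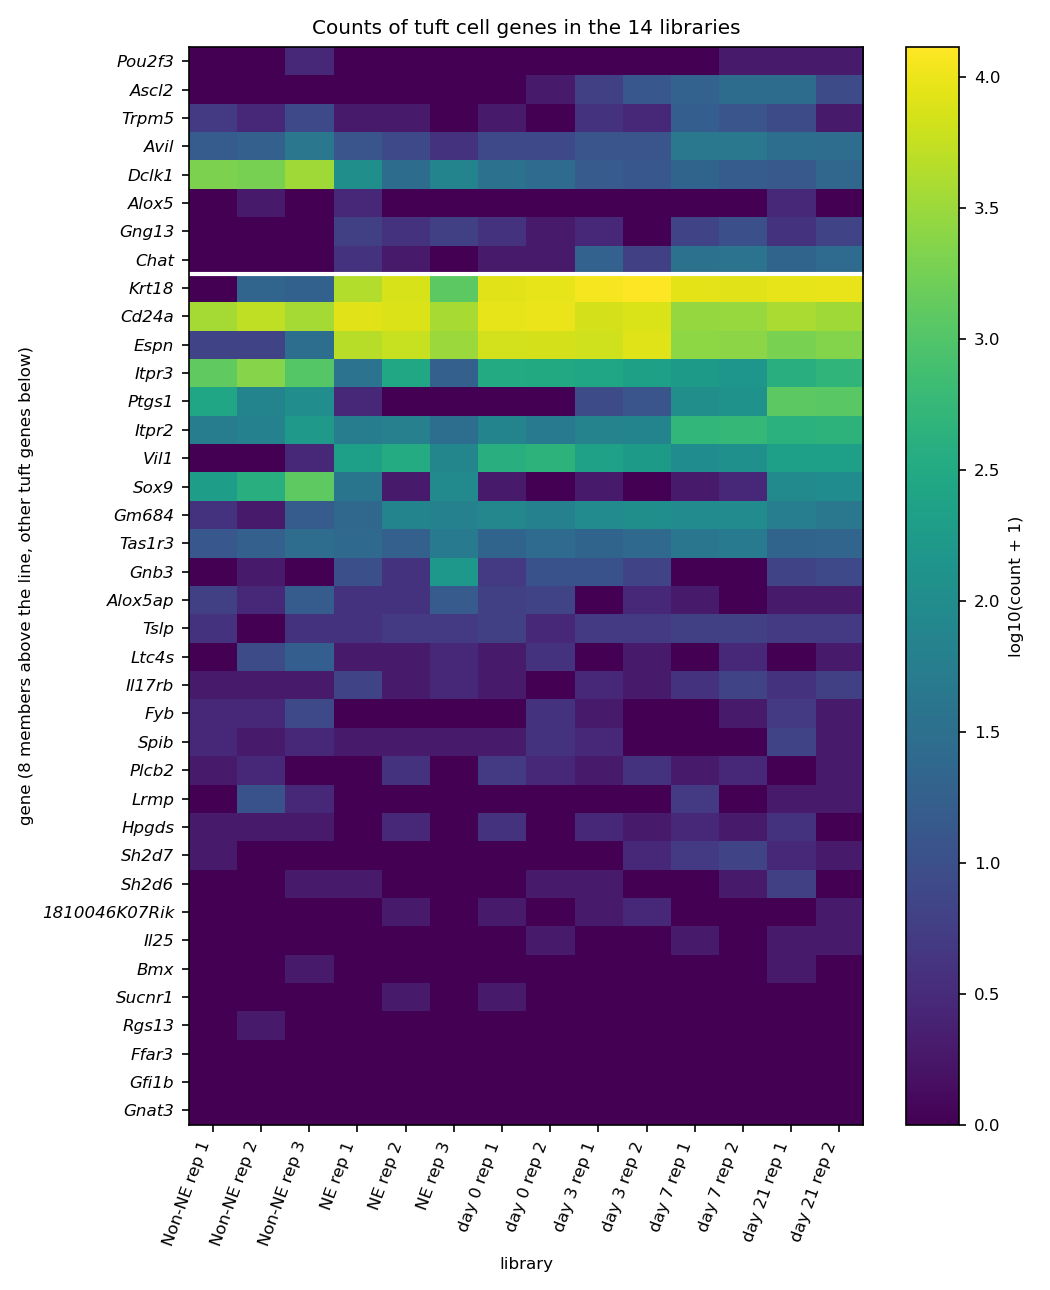
Counts per library, as log10(count + 1) by colour, for the 8 members (above the line) and the 30 other tuft genes (below, ordered by total count) in the 14 libraries. Most rows are dark: Pou2f3, Alox5 and the lower rows hold few counts in every library, while Dclk1 is brightest in the Non-NE columns.

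**Figure D4:**
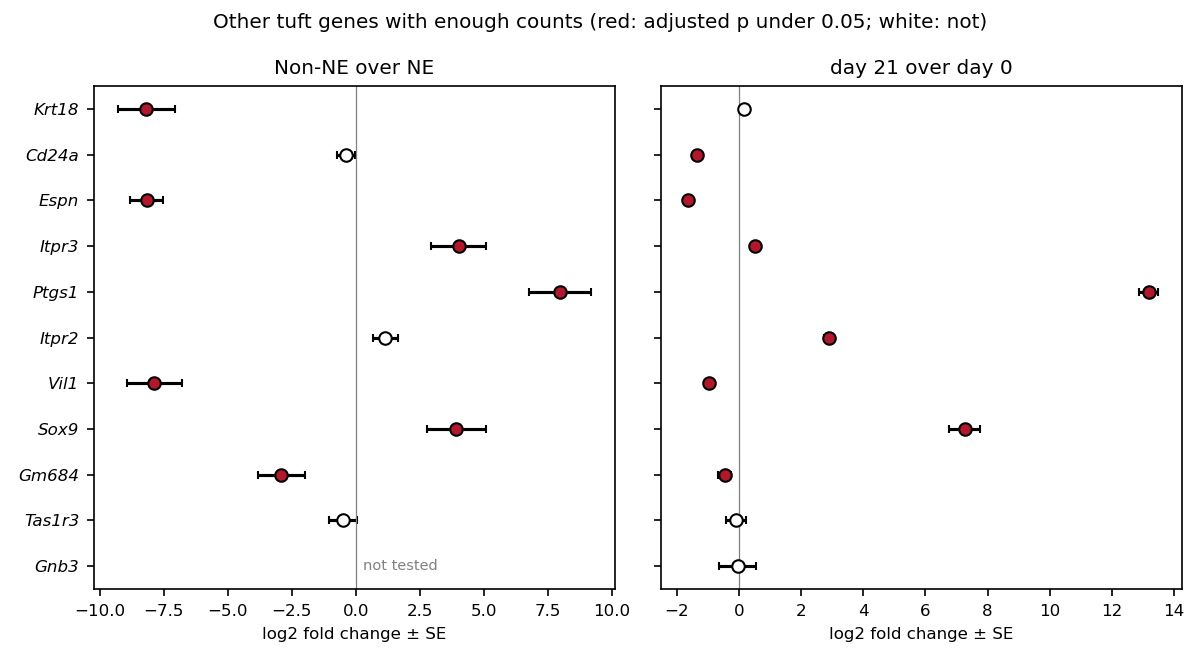
edgeR log2 fold change with SE for other tuft genes with enough counts, 10 in Non-NE over NE (left, where Gnb3 was not tested) and 11 in day 21 over day 0 (right); filled points have an adjusted p under 0.05, and the axes differ. On the left Ptgs1, Itpr3 and Sox9 are filled right of 0 and Krt18, Espn, Vil1 and Gm684 left of it, and on the right Ptgs1 and Sox9 are farthest from 0.

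Markers of other cell types that share tuft genes moved with some of the groups. The leukocyte markers, 7 with a row, summed to 112 to 136 CPM at day 21 and 1.94 to 2.72 CPM at day 0. Nearly all of that was Csf1r, which had 0 counts at day 0 and averaged 60.5 ± 2.80 CPM at day 7 and 114 ± 15.8 CPM at day 21, while Ptprc, the gene of the pan-leukocyte antigen CD45, and Tyrobp had 0 counts in every YAP5SA library. Of the mast cell markers only Kit was above 1 CPM in any group, with means of 14.2 CPM at day 21 and 89.3 CPM in day 0 libraries. The 4 alveolar type I markers summed to 12.1 to 12.7 CPM at day 0, 946 to 1263 CPM at day 3, 4758 to 5221 CPM at day 7 and 2783 to 3186 CPM at day 21. Ager carried most of that sum and had its highest mean at day 7, with 4426 ± 307 CPM, as did Ascl2, Trpm5, Avil and Chat. Aqp5, Hopx and Pdpn had their highest means at day 21, with 198, 174 and 699 CPM, against 175, 133 and 256 CPM at day 7. The part of these markers in the members' changes was not tested.

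Ascl2 and Trpm5 lie 99.9 kb apart on chromosome 7, with 2 protein-coding genes, Tspan32 and Cd81, lying wholly between them. The neighbours were looked at for their position after the members' values were known. Tspan32 had 40 counts at day 7 and 4 at day 0, and was 10.4-fold higher in edgeR (adjusted p = 2.50e-05). Cd81 averaged 815 ± 38.6 CPM at day 7 and 107 ± 3.84 CPM at day 0, 7.66-fold higher in edgeR (adjusted p = 4.37e-20). Outside this stretch the genes looked at were Kcnq1 beyond Trpm5 and Th beyond Ascl2. Both were lower at day 7 than at day 0, by 2.02-fold and 13.6-fold in edgeR (adjusted p = 4.00e-07 and 3.28e-19). In that comparison 37.2% of 13996 genes were called higher and many others lower, so the calls of these neighbours are a description only. In Non-NE cells, where Ascl2 had no counts, Cd81 averaged 189 CPM in Non-NE and 146 CPM in NE libraries and was not called (adjusted p = 0.368 in edgeR).

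For the 5 members with at least 1 CPM in at least 2 libraries, likeness to 13282 genes was measured as Pearson's r of log2(CPM + 1) over the 14 libraries. The libraries fall into 6 groups, so r mostly follows the group means and is given as a description. Ascl2 was closest to Bst1 (0.963), Myoz1 (0.946) and Vgll1 (0.945). Chat was closest to Phgr1 (0.975), Trex2 (0.975) and Upk3bl (0.964), all highest at day 7. Avil was closest to Pdlim2 (0.966), S100a3 (0.963) and Ripk2 (0.960), and Trpm5 to Aph1a (0.902), Fndc7 (0.891) and S100a3 (0.879). Dclk1 was closest to Usp5, Nfib and Lix1l, each at 0.989, all highest in Non-NE cells. Between members r was 0.876 for Ascl2 with Chat, 0.858 for Trpm5 with Avil, and -0.572 for Dclk1 with Chat. Ascl2 or Chat with Trpm5 or Avil gave r from 0.562 to 0.653.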

How the data were processed

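RNA sequencing covered 14 libraries. The submitters' processing notes name STAR 2.4.2, featureCounts and mm10. Neither gene annotation nor strand setting is given in the sources used here. In the table deposited by the authors are raw whole-number counts for 32926 symbols, of which 25 had become dates and 10220 were 0 throughout, and 0 columns were left unused. Libraries were grouped by title. Counts were scaled by TMM, filtered with filterByExpr and tested with edgeR 4.0.16 (R 4.3.3), by its robust quasi-likelihood test and Benjamini-Hochberg adjustment across every gene tested. Non-NE and NE were fitted in their 6 libraries (12966 genes), the days in their 8 (13996 genes), and day 21 against Non-NE in all 14 (14829 genes). These fits had biological coefficients of variation of 0.399, 0.0548 and 0.293.

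The members, lists, rule and tests were chosen with earlier results of these data known. Of the listed genes Kctd12, Siglecf, Adgre1 and Slc18a3 were not analysed here, and 2 further genes are not reported here. The rule named the 8 members, each other tuft gene called in Non-NE against NE or day 21 against day 0, the subtype factors and the 3 genes most like each member. Groups with 0 counts were set to 3 counts over the group for the folds given as at least. The other group's count was taken as exact there, so its counting error is not covered. Count ratios have exact 95% intervals. Coordinates and exon lengths are from GENCODE M21 (GRCm38), and promoters from RefSeq. Alternatives were DESeq2 size factors, library totals, no filter, the DESeq2 1.42.0 test, all 14 libraries, a block on replicate number and each library left out in turn. Neighbouring genes, and a fit without both libraries that share reads, were alternatives added after seeing the data. The pipeline was tested on simulated data. No sample met the conditions for an outlier test, since groups held 2 or 3 libraries.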

Additional observations from a re-analysis of the deposited data

How the results depend on the processing

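Of 474 alternative values of the members' changes, 430 kept their side of the threshold and 39 lost the call. A further 5 gained the call, and 0 changed direction with a call. Within the 430, a change that was not called could still change sign. Dclk1 at day 21 against day 7 had a log2 change of 0.15 without day 7 replicate 1, against -0.07 with all libraries. The number of members called in Non-NE against NE was 1 (Dclk1) in place of 2 with the replicate number as a block, and 1 to 1 when each library was left out. With all 14 libraries in a fit, genes called were 8997 in place of 5554 for Non-NE against NE, 1041 in place of 6804 for day 3 against day 0, 4589 in place of 9932 for day 7 against day 0, 4586 in place of 10032 for day 21 against day 0, 1281 in place of 7785 for day 7 against day 3 and 515 in place of 7042 for day 21 against day 7. The biological coefficient of variation of that fit was 0.293, against 0.0548 in the 8 YAP5SA libraries. In it edgeR called 0 members at day 3 against day 0 (2 at an unadjusted p under 0.05), 1 (Avil) at day 7 against day 3, and 0 at day 21 against day 7 (0 unadjusted). At day 21 against day 7, members called were also 1 (Trpm5) on library totals, 1 (Trpm5) without a count filter and 0 in DESeq2 (0 unadjusted), and the cause was not tested. With each library left out, members called ran from 1 to 3 for day 3 against day 0, from 0 to 3 for day 21 against day 7, from 3 to 5 for day 21 against day 0, from 3 to 4 for day 7 against day 3, and stayed at 4 for day 7 against day 0 and 3 for day 21 against Non-NE. Where this left a group with 1 library, that library was taken to vary like the others. DESeq2 did not call Dclk1 at day 3 (adjusted p = 0.0653), Trpm5 at day 21 (0.0889), both against day 0, or Ascl2 at day 7 against day 3 (0.0561).

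Same-numbered libraries did not deviate together (r from -0.0726 to 0.0424), so the numbers do not pair them, and the block changed no other member's call. It gave 4888 genes in place of 5554 in Non-NE against NE. Scaling by library totals moved the median log2 change of all genes by -0.26 for Non-NE against NE, -0.20 for day 7 and -0.14 for day 21 against day 0, -0.14 for day 7 against day 3 and 0.18 for day 21 against Non-NE. It turned 2594 higher and 2960 lower genes into 1930 and 3757 for Non-NE against NE, 5208 and 4724 into 4149 and 6116 for day 7 against day 0, and 4128 and 3657 into 3140 and 5076 for day 7 against day 3. No member that was called changed direction. Without both libraries that share reads, day 21 against Non-NE called the same 3 members. Depth limits Pou2f3, Alox5 and Gng13 most, with 5, 5 and 43 counts over 14 libraries.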
